A study of Homo sapiens with 12 samples.

Results

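HMGA1, HMGA2, LIN28B, IGF2BP1, IGF2BP2 and IGF2BP3 are genes that embryonic tissues and many carcinomas use at high levels. Several of them, though not all, are low in most adult tissues. These 6 of the 39368 gene symbols in the count tables were followed through 12 RNA-seq libraries of MUC1-C silencing in HNSCC (squamous carcinoma of the head and neck) cells. HMGA2 was chosen by its counts, which were higher with doxycycline (DOX) in CAL27 cells, and the others because they belong to its family or are linked to it through the let-7 microRNAs. The CAL27 values of the members are therefore a description and carry no test, and neither does the difference between the lines, which uses the CAL27 libraries. Members were tested in HSC3 cells with and without DOX, and all but HMGA2 between the lines without DOX.

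Both cell lines, CAL27 and HSC3, are established lines of HPV-negative HNSCC, here transduced with tet-MUC1shRNA, a vector that expresses a short hairpin RNA against MUC1 when DOX is added. For each line, CAL27/tet-MUC1shRNA or HSC3/tet-MUC1shRNA, a group given vehicle (0.1% DMSO) for 7 days was set against a group given 500 ng/mL DOX for the same time, with 3 libraries in each of the 4 groups, from cells grown in triplicate. CAL27 cells were grown in DMEM and HSC3 cells in MEM, each with fetal bovine serum, so the line and its medium cannot be told apart. All cells carried the hairpin vector, and DOX-treated cells with a control hairpin were not analysed here, so silencing of MUC1 cannot be told apart from other effects of DOX. Each line is 1 transduced population, and p-values measure the spread between its cultures.

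HMGA1 and HMGA2 encode small proteins that bind the minor groove of AT-rich DNA and bend it, and thereby help transcription factors assemble on chromatin. LIN28B encodes an RNA-binding protein that blocks the maturation of let-7, and IGF2BP1, IGF2BP2 and IGF2BP3 encode RNA-binding proteins that stabilize messages, with a preference for N6-methyladenosine (m6A). Mature let-7 in turn represses messages that carry matches to its seed, the bases from position 2 to position 8, and HMGA2 and LIN28B are its textbook targets. The circuit is known for holding HMGA2 and some IGF2BP levels low in differentiated epithelium and for failing to do so in carcinomas.

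The let-7 family is shown because its seed links the members. RefSeq lists 11 human mature microRNAs with the seed GAGGUAG, at 14 loci of GRCh38.p14. The seed is in capitals below.
hsa-let-7a-5p (chromosome 9, 94175962 to 94175983, + strand, and 2 other loci): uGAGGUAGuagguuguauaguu
hsa-let-7g-5p (chromosome 3, 52268336 to 52268357, - strand): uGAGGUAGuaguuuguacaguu
hsa-miR-98-5p (chromosome X, 53556299 to 53556320, - strand): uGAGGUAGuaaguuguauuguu

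The match to this seed in a message is CTACCTC, which was searched on the sense strand of 1 annotated 3′ UTR per gene (GENCODE v44 on GRCh38). It was found in 9.51% of the 19580 genes with a 3′ UTR, and all 6 members had at least 1. HMGA2, LIN28B and IGF2BP1 held 4 each and HMGA1, IGF2BP2 and IGF2BP3 held 1 each, while 0.0613% of genes (12 of 19580) held 4 or more. The members were picked as let-7-linked genes, so these matches describe them and support nothing further. The sites of HMGA2, and 1 site of each other member, are printed 5′ to 3′ on the strand of the gene, with the match in capitals. All lie in exonic sequence of annotated 3′ UTRs.
HMGA2 site 1 (chromosome 12, 65963299 to 65963320, + strand): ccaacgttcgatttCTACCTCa
HMGA2 site 2 (chromosome 12, 65964534 to 65964555, + strand): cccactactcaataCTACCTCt
HMGA2 site 3 (chromosome 12, 65964946 to 65964967, + strand): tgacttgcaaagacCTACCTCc
HMGA2 site 4 (chromosome 12, 65965799 to 65965820, + strand): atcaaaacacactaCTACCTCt
HMGA1 site 1 (chromosome 6, 34245830 to 34245851, + strand): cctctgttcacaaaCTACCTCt
LIN28B site 1 (chromosome 6, 105078813 to 105078834, + strand): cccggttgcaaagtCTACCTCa
IGF2BP1 site 1 (chromosome 17, 49051062 to 49051083, + strand): gtgtgcgaagtaaaCTACCTCa
IGF2BP2 site 1 (chromosome 3, 185644220 to 185644241, - strand): acacacagaagaagCTACCTCa
IGF2BP3 site 1 (chromosome 7, 23311795 to 23311816, - strand): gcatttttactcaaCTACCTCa

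The first HMGA2 match began at base 21 of its 3′ UTR of 2999 bases and the last at base 2521. The longer match CTACCTCA, which contains the shorter one and adds an A opposite base 1 of the microRNA, was present in 3.66% of genes. Of the members, HMGA1 lacked it, HMGA2, IGF2BP2 and IGF2BP3 held 1 each, LIN28B held 2 and IGF2BP1 held 3. Per kilobase of 3′ UTR, HMGA2 had 1.33 matches, LIN28B 0.879, HMGA1 0.742, IGF2BP1 0.597, IGF2BP3 0.464 and IGF2BP2 0.416, against 0.0627 over all 3′ UTRs.

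The libraries held 89730914 to 169065103 counts on genes. MUC1 fell with DOX in both lines by edgeR's quasi-likelihood test, from 60.9 ± 2.61 to 3.28 ± 0.274 CPM (counts scaled to a common library size; mean ± SD, n = 3) in CAL27 cells (adjusted p = 1.6e-19) and from 1.60 ± 0.161 to 0.214 ± 0.0834 in HSC3 cells (adjusted p = 2.0e-04). Several counts can stand for 1 molecule, and the estimate of counts per molecule was 2.45 to 3.33 in CAL27 libraries, 4.18 to 7.43 in HSC3 vehicle libraries and 8.93 to 17.2 in HSC3 DOX libraries. HSC3 DOX replicate 1 had the highest estimate and stood apart from its group, with chi-square statistics per degree of freedom of 141 and 90.9 against the other two, compared with 7.71 to 31.4 for every other pair of replicates. Results that rest on it are given with and without it. The epithelial markers KRT5, KRT14, KRT6A, TP63, CDH1 and EPCAM were present in all 4 groups. Leukocyte markers had at most 12 (PTPRC), 53 (CD3E) and 49 (CD68) counts in any library, and endothelial markers at most 10 (PECAM1) and 63 (VWF). The fibroblast marker COL1A1 was higher, with up to 1106 counts and group means of 4.59 to 8.40 CPM, while COL1A2 reached 295 counts in CAL27 cells and was at 0 in all HSC3 libraries, and PDGFRA had at most 24 counts. Among germ or pluripotent cell markers POU5F1 had 105 to 315 counts, NANOG at most 3 and DPPA4 none. The mesenchymal markers differed in direction between the lines. VIM was at a mean of 0.260 CPM in CAL27 vehicle cells and 357 CPM in HSC3 vehicle cells. CDH2 went the other way, at 42.1 and 1.79 CPM, and ZEB1 was low in both, at 0.659 and 0.930 CPM.

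**Figure D1:**
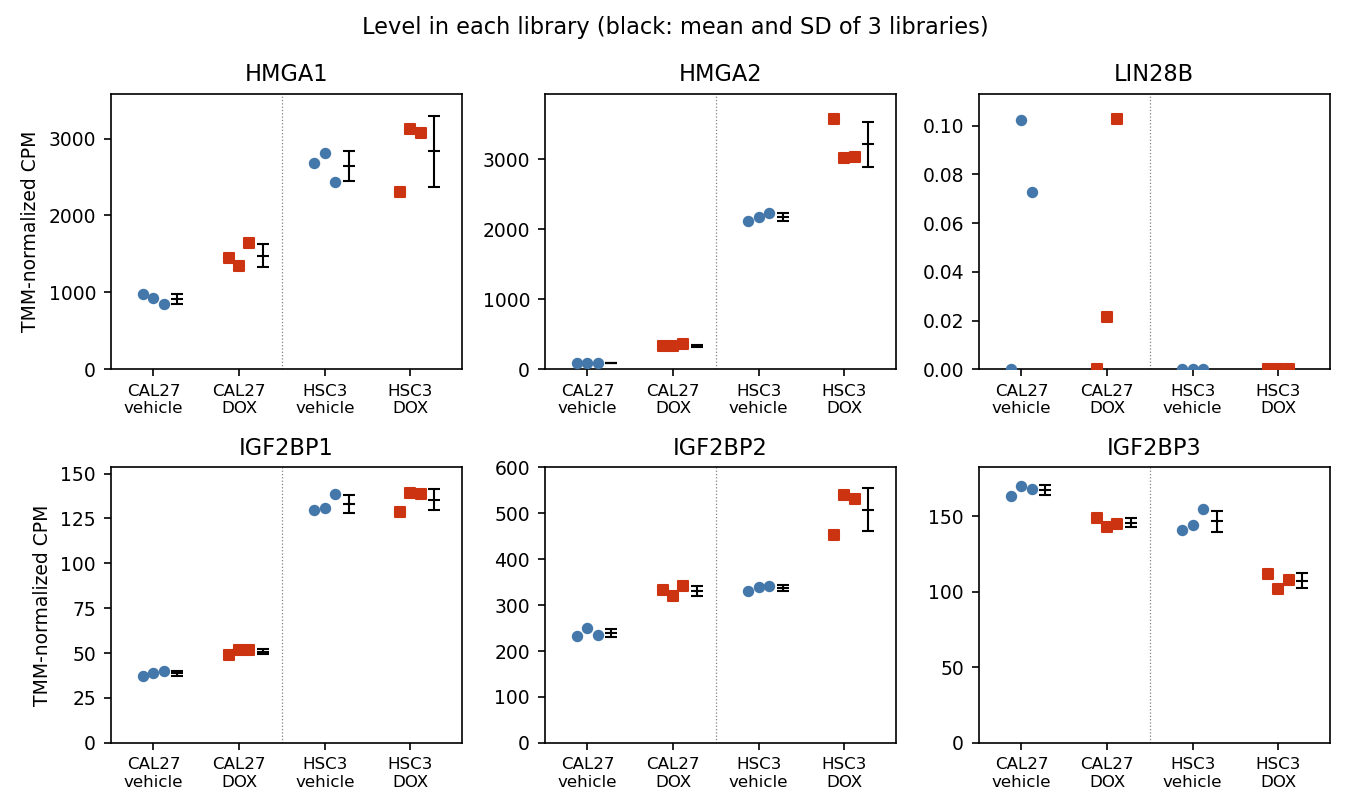
Each panel plots 1 gene, with TMM-normalized CPM on a linear y axis from 0 and the 4 groups on the x axis. Points are libraries (blue circles vehicle, red squares DOX), and the black mark, left out for LIN28B, is the mean with the SD of 3 libraries. CPM were normalized within each line, so levels on either side of the dotted line are not on 1 scale. HMGA2 lies at 87.0 to 88.1 CPM with vehicle and at 326 to 354 CPM with DOX in CAL27 cells, IGF2BP3 lies lower with DOX in both lines, and LIN28B stays at 0.103 CPM or less in every library.

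HMGA2 (chromosome 12, 65824460 to 65966291, + strand) had the largest difference among the members in CAL27 cells. Vehicle libraries held 11122, 8598 and 9560 HMGA2 counts, and DOX libraries held 31256, 31190 and 41397. Normalized, these were 88.1, 88.0 and 87.0 CPM against 326, 335 and 354 CPM. The groups lay far apart, and the log2 fold change was 1.95 (SE 0.041), or 3.86-fold. This is the contrast in which HMGA2 was chosen, so no test is given.

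In HSC3 cells, which the choice did not use, HMGA2 also rose with DOX. The vehicle libraries had 2119, 2176 and 2226 CPM, the DOX libraries 3575, 3016 and 3036 CPM, and the groups did not overlap. The log2 fold change was 0.56 (SE 0.073, 95% interval 0.40 to 0.72), or 1.48-fold, with an adjusted p of 2.0e-04 by edgeR's quasi-likelihood test. Replicate 1 had the highest of the DOX levels, and without it the log2 fold change was 0.48 (adjusted p = 3.9e-08). The range over 13 alternatives of the analysis was 0.48 to 0.61, with adjusted p-values from 1.8e-10 to 0.003.

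HMGA1 (chromosome 6, 34236873 to 34246231, + strand), the family member that many proliferating cells also express, was 1.61-fold higher with DOX in CAL27 cells. Vehicle libraries had 973, 928 and 845 CPM there, against 1441, 1343 and 1636 CPM in DOX libraries (log2 fold change 0.69, SE 0.075). All DOX libraries lay above all vehicle libraries. HSC3 vehicle libraries had 2685, 2816 and 2435 CPM, against 2305, 3125 and 3072 CPM in HSC3 DOX libraries. These overlapped, because replicate 1 of the DOX group lay below the vehicle range while the other two lay above it. The log2 fold change was 0.10 (SE 0.11, 95% interval -0.14 to 0.34, adjusted p = 0.57 by edgeR). Without that library it was 0.23 (adjusted p = 0.0021), so 1 library decided this call. The 8 HMGA1 pseudogenes in the tables summed to at most 0.424% of the HMGA1 counts in any library, and how reads shared with them were assigned is not given in the sources used here.

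The ratio of HMGA2 to HMGA1 was higher in the DOX libraries of both lines. HMGA2 counts per HMGA1 count were 0.0905, 0.0948 and 0.103 in CAL27 vehicle libraries and 0.226, 0.249 and 0.216 in CAL27 DOX libraries. HSC3 vehicle libraries had ratios of 0.789, 0.773 and 0.914, and HSC3 DOX libraries 1.55, 0.965 and 0.988. Every DOX ratio was above every vehicle ratio. The exact permutation test of the 3 against 3 HSC3 libraries gave a two-sided p = 0.10, the smallest it can give, and the adjusted p over 3 ratios was also 0.10. The HSC3 log2 change of the ratio was 0.47 with all libraries and 0.25 without DOX replicate 1.

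LIN28B (chromosome 6, 104936616 to 105083332, + strand) was barely detected and was not tested in any comparison. The CAL27 vehicle libraries held 0, 10 and 8 LIN28B counts, the CAL27 DOX libraries 0, 2 and 12, and the groups overlapped. All 6 HSC3 libraries held 0 counts. A count of 0 (up to 3 counts) allows 0.0177 to 0.0334 CPM in these libraries, and 0.140 to 0.305 CPM where 3 molecules are counted by each library's counts per molecule, covering counting error only. LIN28A, its paralog, was tested in CAL27 cells at a log2 fold change of 0.077 (SE 0.56, adjusted p = 0.93) and not in HSC3 cells.

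The 3 IGF2BP genes differed in direction. IGF2BP1 (chromosome 17, 48997385 to 49056145, + strand) had 37.2, 39.1 and 40.0 CPM in CAL27 vehicle libraries against 49.1, 51.5 and 51.6 CPM in CAL27 DOX libraries (log2 fold change 0.39, SE 0.046). HSC3 vehicle libraries had 129.8, 131 and 139 CPM, and HSC3 DOX libraries 129, 139 and 138 CPM. These groups overlapped, and the log2 fold change of 0.025 (SE 0.062, adjusted p = 0.82 by edgeR) had a 95% interval of -0.11 to 0.16.

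IGF2BP2 (chromosome 3, 185643130 to 185825042, - strand), the family member with known roles in metabolism and muscle, was higher with DOX in both lines. Levels were 234, 250.3 and 235 CPM against 334, 319 and 341 CPM in CAL27 cells (log2 fold change 0.47, SE 0.041). HSC3 levels were 331, 341 and 341 CPM against 453, 539.9 and 532 CPM, with no overlap. The HSC3 log2 fold change was 0.59 (SE 0.072, 95% interval 0.43 to 0.75, adjusted p = 1.3e-04 by edgeR), and it was 0.67 without DOX replicate 1.

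IGF2BP3 (chromosome 7, 23310209 to 23470491, - strand), the family member most used as a carcinoma marker, was the only one of the 5 measured members with lower levels under DOX. CAL27 vehicle libraries had 164, 170.1 and 168 CPM and CAL27 DOX libraries 149, 143 and 145 CPM (log2 fold change -0.20, SE 0.037). In HSC3 cells it fell from 141, 144 and 155 CPM to 112, 102 and 108 CPM. The groups did not overlap in either line. The HSC3 log2 fold change was -0.45 (SE 0.065, 95% interval -0.60 to -0.31, adjusted p = 3.8e-04 by edgeR). MALSU1, on the opposite strand, covers 17.8% of the IGF2BP3 exons, and whether the counts used strand is not given in the sources used here. MALSU1 itself rose with DOX (log2 fold change 0.47 in CAL27 cells, adjusted p = 2.1e-08, and 0.32 in HSC3 cells, adjusted p = 0.038, by edgeR) and had at most 6608 counts in any library against at least 13122 for IGF2BP3.

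IGF2BP2 counts per IGF2BP3 count were 1.43, 1.47 and 1.40 in CAL27 vehicle libraries and 2.24, 2.23 and 2.36 in CAL27 DOX libraries. They were 2.34, 2.36 and 2.21 in HSC3 vehicle libraries and 4.06, 5.30 and 4.93 in HSC3 DOX libraries, with no overlap in either line. The IGF2BP2 to IGF2BP1 ratio went from 6.19 ± 0.279 to 6.53 ± 0.308 (SD, n = 3) in CAL27 cells, with overlap, and from 2.54 ± 0.0713 to 3.75 ± 0.198 in HSC3 cells, without overlap. The exact permutation test gave p = 0.10, the smallest possible, for both HSC3 ratios.

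In HSC3 cells, 2 of the 5 tested members rose, 1 fell and 2 did not pass the test, and none changed by over 2-fold. Over all 18021 genes tested, 13.0% rose and 15.4% fell at this threshold (adjusted p under 0.05), and 1.58% and 4.40% did so by over 2-fold. In CAL27 cells the DOX libraries lay wholly above the vehicle libraries for 4 members and wholly below for 1, against 26.0% and 26.3% of the 19239 genes tested there. These CAL27 counts share the contrast of the choice and nothing is read from them. HMGA2 was the only member beyond 2-fold in that contrast, against 1.31% of all genes called higher and 5.11% called lower by over 2-fold. In HSC3 cells HMGA2 and IGF2BP2 lay wholly above and IGF2BP3 wholly below, against 19.8% and 22.8% of all genes.

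**Figure D2:**
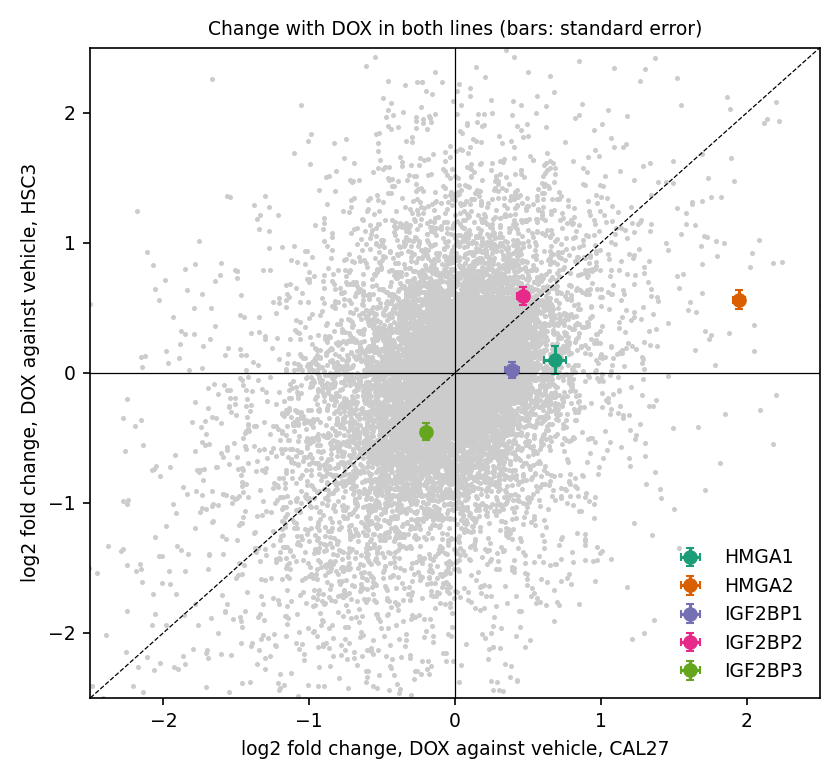
The x axis is the log2 fold change with DOX in CAL27 cells and the y axis that in HSC3 cells. Grey points are genes tested in both lines, coloured points are the 5 measured members with standard errors, and the dashed line marks equal change. HMGA2 (1.95 and 0.56), HMGA1 and IGF2BP1 lie below the dashed line, IGF2BP2 (0.47 and 0.59) lies just above it, and IGF2BP3 lies in the lower left. Axes are cut at -2.5 and 2.5.

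The change of HMGA2 was smaller in HSC3 than in CAL27 cells by 1.38 on the log2 scale (SE 0.090), that of HMGA1 by 0.59 (SE 0.15) and that of IGF2BP1 by 0.36 (SE 0.071). IGF2BP3 was lower by a further 0.25 (SE 0.074), and the change of IGF2BP2 differed by 0.12 (SE 0.084). These differences use the CAL27 contrast and are given without a test; of all 20694 genes, 8.25% had a change called higher and 12.3% a change called lower in HSC3 cells. Without HSC3 DOX replicate 1, the difference was -0.31 for IGF2BP1 and 0.21 for IGF2BP2. MUC1 itself had a smaller measured fall in HSC3 cells, by 1.36 on the log2 scale (SE 0.25, adjusted p = 0.0010 by edgeR), a call lost in 1 of 17 alternatives. Its mean in HSC3 DOX cells lay within the 0.140 to 0.305 CPM that 3 molecules stand for in HSC3 libraries. A larger fall could hardly have been measured there, so the size of this difference is uncertain. With vehicle, the log2 difference of MUC1 in HSC3 from CAL27 cells was -4.99 (SE 0.082). The part of these MUC1 values in the member differences was not tested.

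Epithelial markers changed in the same libraries. The summed level of the 6 markers was 5724 to 5969 CPM with vehicle and 2773 to 2952 CPM with DOX in CAL27 cells, and 5258 to 5861 CPM against 2329 to 2675 CPM in HSC3 cells, on the scale shared by all 12 libraries. KRT5 made up most or much of this sum, with means of 3701 CPM in CAL27 vehicle and 2887 CPM in HSC3 vehicle cells. Of the 6, KRT5, KRT14, KRT6A and TP63 fell and EPCAM rose in both lines, and CDH1 had adjusted p-values of 0.52 and 0.87 by edgeR. No marker of the list was at 0. Their part in the member values was not tested.

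Before any DOX the lines held very different amounts of these messages. HSC3 vehicle cells exceeded CAL27 vehicle cells by a log2 fold change of 4.91 (SE 0.042) for HMGA2, or 30.0-fold, given without a test because the CAL27 vehicle libraries also served the contrast in which it was chosen. The difference was 2.06 (SE 0.045, adjusted p = 5.1e-13 by edgeR) for IGF2BP1, 1.81 (SE 0.063, adjusted p = 3.0e-11) for HMGA1 and 0.77 (SE 0.038, adjusted p = 9.3e-10) for IGF2BP2. For IGF2BP3 it was 0.09 (SE 0.042, 95% interval -0.0018 to 0.18, adjusted p = 0.073). Of 19410 genes, 34.7% were higher and 37.1% lower in HSC3 cells, so a called difference was common. At over 2-fold these shares were 14.2% and 20.5%, and of the 4 members tested here 3 were called higher, 2 of them by over 2-fold. The libraries of the lines did not overlap for any of the 5 measured members, with HSC3 above, as for 35.9% of all genes (40.7% lay below). Scaling by library totals in place of TMM moved the median of all genes by -0.27 and turned IGF2BP3 to -0.18 (adjusted p = 0.0013), while the other 4 stayed higher in HSC3 cells. Without HSC3 vehicle replicate 1, IGF2BP3 passed the test at 0.13 (adjusted p = 0.021).

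Per kilobase of exon, the order of the members also differed between the lines. In RPKM, which is CPM divided by the exon length in kilobases (12 libraries scaled together, SD, n = 3), CAL27 vehicle cells had HMGA1 at 357 ± 26.8, IGF2BP2 at 40.8 ± 1.32, IGF2BP3 at 17.8 ± 0.211, HMGA2 at 5.28 ± 0.0605 and IGF2BP1 at 3.65 ± 0.117. With DOX in CAL27 cells HMGA2 moved past IGF2BP3, to 20.4 ± 0.808 against 15.5 ± 0.427 RPKM. In HSC3 vehicle cells the levels were 1249 ± 96.1 for HMGA1, 158 ± 3.95 for HMGA2, 69.6 ± 1.41 for IGF2BP2, 18.9 ± 0.872 for IGF2BP3 and 15.2 ± 0.522 RPKM for IGF2BP1. With DOX they were 1341 ± 208, 235 ± 25.0, 105 ± 9.11, 13.8 ± 0.744 and 15.5 ± 0.547 RPKM for the genes as just listed, so IGF2BP1 lay above IGF2BP3 there. No neighbours in the order of levels overlapped in any group.

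Among 20450 genes with a length, HMGA1 ranked 50 in CAL27 vehicle cells and 19 in HSC3 vehicle cells by mean RPKM. HMGA2 ranked 5961 in CAL27 vehicle, 1906 in CAL27 DOX, 157 in HSC3 vehicle and 91 in HSC3 DOX cells. IGF2BP2 ranked between 277 and 790, IGF2BP3 between 2122 and 3217 and IGF2BP1 between 2877 and 7288. The length matters, since all HMGA2 exons together span 15.1 kb. With the longest transcript in its place HMGA2 came to 9.84 RPKM in CAL27 vehicle cells. With that length IGF2BP3 lay above IGF2BP1 in HSC3 DOX cells (27.6 against 17.0 RPKM), the reverse of the order given here.

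Other transcripts at the HMGA2 locus were examined after their values had been seen. LINC02454, a long noncoding RNA of the same strand (chromosome 12, 65589111 to 65614169, before the HMGA2 start), had 541, 365 and 306 counts in CAL27 vehicle libraries and 974, 1057 and 1360 in CAL27 DOX libraries. The groups did not overlap, and its log2 fold change was 1.61 (SE 0.12, adjusted p = 1.5e-08 by edgeR). In HSC3 cells LINC02454 rose by 0.54 on the log2 scale (SE 0.12, adjusted p = 0.0046). RPSAP52, a transcribed pseudogene on the opposite strand that overlaps the HMGA2 start, had log2 fold changes of 1.13 (adjusted p = 0.011) in CAL27 and 0.15 (adjusted p = 0.34) in HSC3 cells. For the antisense HMGA2-AS1 they were 0.89 (adjusted p = 0.053) and -0.06 (adjusted p = 0.69). HMGA2-AS1 covered 2.55% of the HMGA2 exons, a stretch that made up 6.36% of its own exons. RPSAP52 overlapped the HMGA2 gene body but shared no exonic bases with it in this annotation. Reads of shared antisense stretches can only be told apart where counting used strand, which the sources do not give.

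The protein-coding neighbours differed among themselves. In CAL27 cells LEMD3, an inner nuclear membrane protein gene, had a log2 fold change of 0.0087 (SE 0.040, adjusted p = 0.88) and the methionine sulfoxide reductase gene MSRB3 had 0.10 (SE 0.075, adjusted p = 0.29). TBC1D30, a gene of a Rab GTPase-activating protein, rose by 0.46 (SE 0.0997, adjusted p = 7.1e-04). IRAK3, an inhibitor of Toll-like receptor signalling, fell by 0.84 (SE 0.10, adjusted p = 1.5e-06) and GRIP1 fell by 0.53 (SE 0.092, adjusted p = 8.3e-05), both by edgeR. Of 15 tested genes other than HMGA2 within 1 Mb of it, 3 rose and 2 fell in CAL27 cells, where 22.6% of all genes rose and 21.8% fell. In HSC3 cells 4 rose and 3 fell among 15, where 13.0% of all genes rose and 15.4% fell. Of the neighbours named here, LEMD3 fell by 0.27 (adjusted p = 0.015) and MSRB3 rose by 0.43 (adjusted p = 0.016) in HSC3 cells. GRIP1 fell there by 1.02 (adjusted p = 5.3e-04). TBC1D30 (1.16, SE 0.46, adjusted p = 0.084) and IRAK3 (-2.04, SE 0.71, adjusted p = 0.054) did not pass the test there, all by edgeR.

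**Figure D3:**
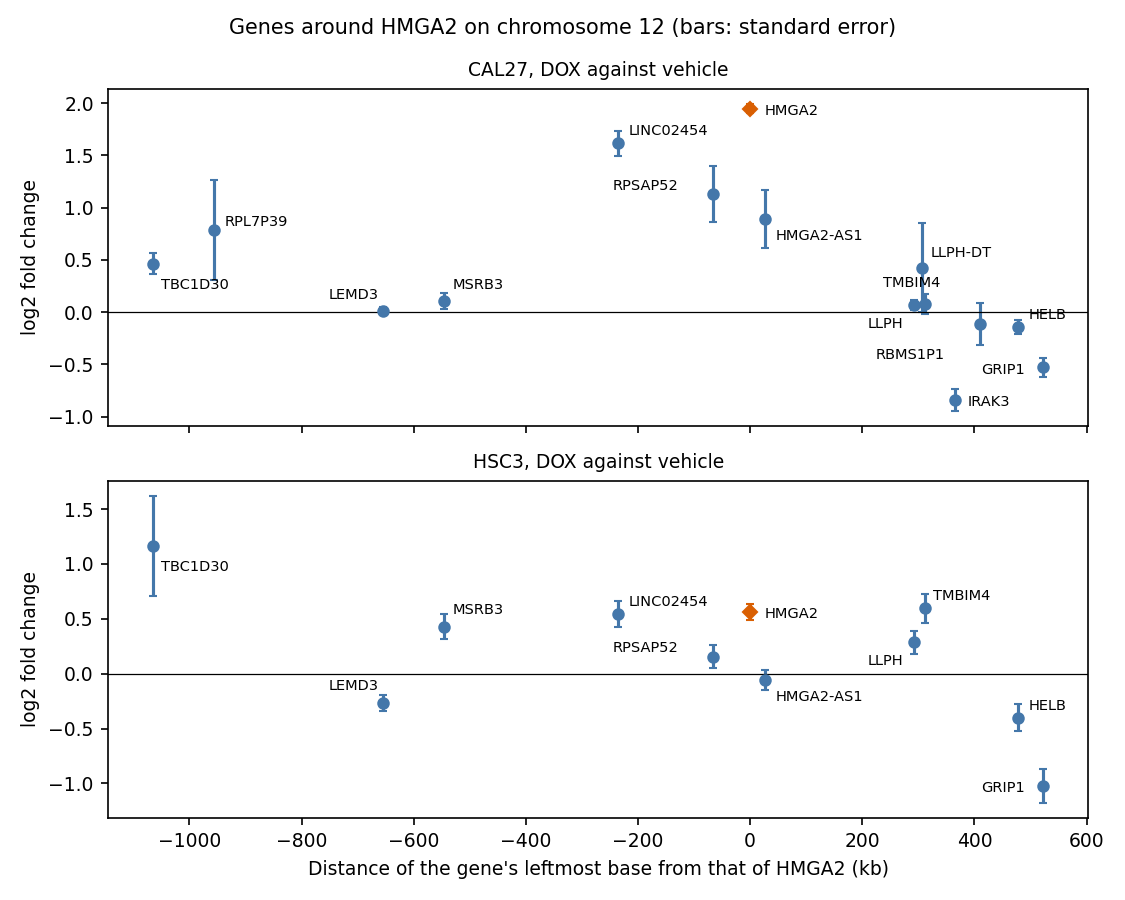
The x axis is the distance in kb between the leftmost base of each gene and that of HMGA2, and the y axis is the log2 fold change with DOX, for CAL27 cells above and HSC3 cells below. Bars are standard errors, HMGA2 is the orange diamond, and genes whose standard error was 0.5 or more are left out. In CAL27 cells LINC02454 (1.61) and RPSAP52 (1.13) lie near HMGA2, while LEMD3 and MSRB3 lie near 0.

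Genes whose levels across the 12 libraries were most like those of a member were found by the root mean square difference of centred log2 CPM, over 9392 genes. For HMGA2 they were SFTA1P, at 0.27, MGLL, a lipase that splits monoacylglycerols, at 0.31, and MIR100HG at 0.32, where the median over all genes was 2.16. SFTA1P had log2 fold changes of 2.08 in CAL27 and 1.02 in HSC3 cells, MGLL 1.46 and 0.39, and MIR100HG 2.51 and 0.52. For HMGA1 they were MAP3K9 (0.11) and RAC2 (0.12), for IGF2BP1 COL17A1 (0.084) and BCL2L1 (0.086), for IGF2BP2 ASB1 (0.077) and DENND3 (0.083), and for IGF2BP3 MPZL1 (0.042) and LATS1 (0.054). The log2 difference between the untreated lines was 4.87 for SFTA1P, 4.47 for MGLL and 4.85 for MIR100HG, beside 4.91 for HMGA2, and the measure weighs that difference with the rest.

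MIR100HG is also the host transcript of a let-7a locus on chromosome 11 (122146568 to 122146589, - strand). CAL27 vehicle libraries had 1.66, 1.71 and 1.42 CPM and CAL27 DOX libraries 7.26, 8.53 and 11.4 CPM, without overlap. The CAL27 rise of MIR100HG was 2.51 in log2 terms (SE 0.16) and the HSC3 rise was 0.52 (SE 0.086, adjusted p = 0.0010 by edgeR). Its likeness to HMGA2 was found over the same libraries, so its CAL27 rise is given without a p-value. The HSC3 p-value is not independent of that likeness either. Mature let-7 was not measured by these poly(A) libraries. Among the 6 let-7 host transcripts tested in CAL27 cells, 3 rose and none fell (22.6% and 21.8% of all genes), the other two that rose being WDR82 (0.26, SE 0.040), a subunit of histone methyltransferase complexes that hosts let-7g, and HUWE1 (0.20, SE 0.053), a ubiquitin ligase that hosts let-7f and miR-98. HUWE1 missed the threshold without vehicle replicate 1 (adjusted p = 0.070). Of 5 tested in HSC3 cells 1 rose (13.0% of all genes did, and 15.4% fell), and MIRLET7BHG fell by 0.87 (SE 0.26, adjusted p = 0.026), a gene named after its values were seen.

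Genes of the let-7 circuit were counted by lists, beside the median of all genes of -0.0052 in CAL27 and -0.0097 in HSC3 cells. Each count reads against the share of all genes that rose and fell, which was 22.6% and 21.8% for CAL27 and 13.0% and 15.4% for HSC3. These shares include noncoding genes. The lists were chosen with earlier results of these data known, and the CAL27 contrast is the one in which HMGA2 was chosen. No list was tested as a set, so the counts are descriptions. Among genes with an annotated 3′ UTR and no let-7 match, 27.8% rose and 25.6% fell in CAL27 cells. In HSC3 cells 15.4% of such genes rose and 18.4% fell. Of 28 tested let-7 targets, 17 rose, 4 fell and 7 did not pass in CAL27 cells (median log2 fold change 0.33), and 13 rose, 6 fell and 9 did not pass in HSC3 cells (median 0.14). CCND1, the D-type cyclin of the G1 phase, rose by 1.39 (SE 0.049, adjusted p = 9.0e-14) in CAL27 and by 0.55 (SE 0.058, adjusted p = 4.0e-05) in HSC3 cells. CCND2, another D-type cyclin, rose by 1.38 (SE 0.063) in CAL27 cells. In HSC3 cells CCND2 rose by 0.20 (SE 0.065, adjusted p = 0.035), a call lost in 4 of 13 alternatives, among them the fits without vehicle replicate 1, vehicle replicate 2 or DOX replicate 3, with adjusted p-values of 0.12 to 0.16. THBS1, the matrix protein thrombospondin 1, rose by 1.28 (SE 0.049) and 1.18 (SE 0.064) in the 2 lines. ARID3A, a DNA-binding protein, rose by 0.27 (SE 0.056) in CAL27 and by 1.48 (SE 0.096) in HSC3 cells.

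**Figure D4:**
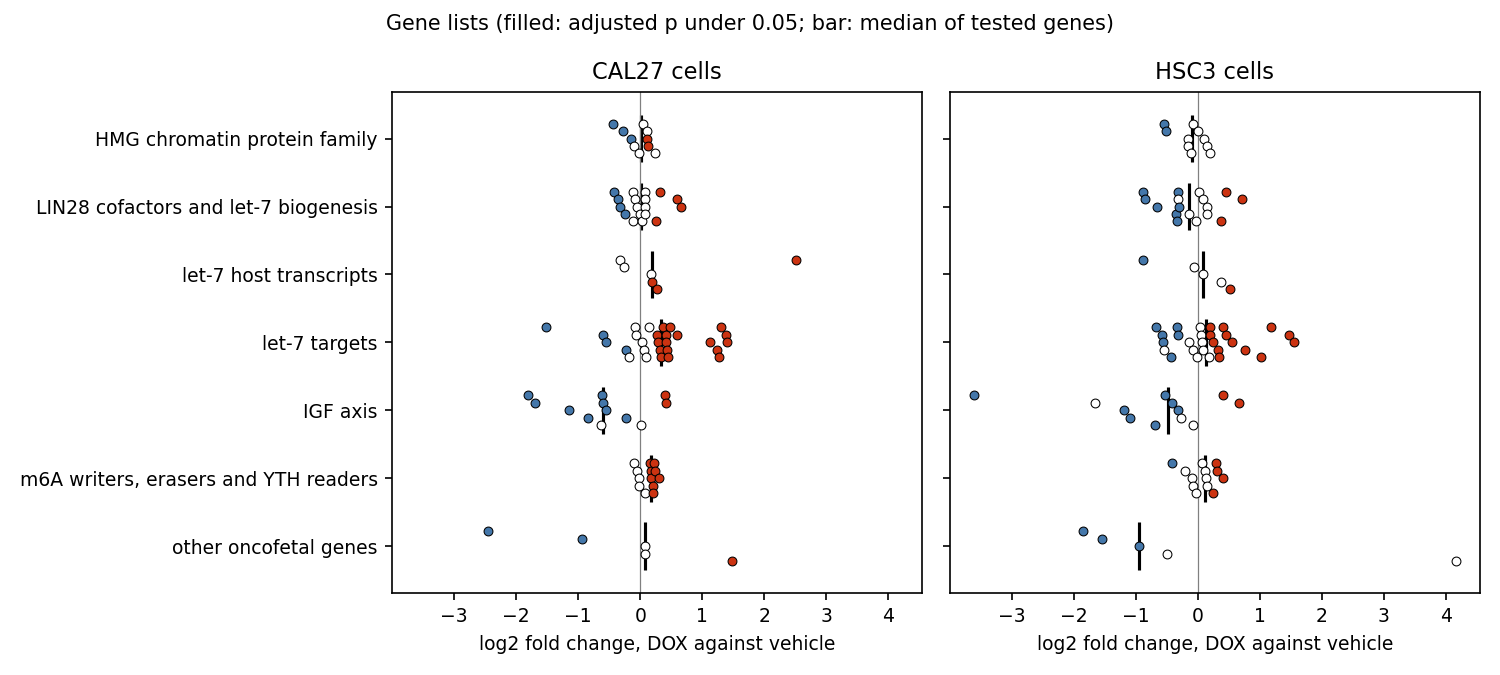
Each row is a gene list and each point a tested gene, with the log2 fold change with DOX on the x axis, for CAL27 cells on the left and HSC3 cells on the right. Filled points passed an adjusted p of 0.05 (red higher, blue lower), open points did not, and bars are medians of the tested genes. The let-7 targets have medians of 0.33 and 0.14, and the IGF axis has medians of -0.61 and -0.47.

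Of 18 tested LIN28 cofactors and let-7 biogenesis genes, 4 rose and 4 fell in CAL27 cells, near the shares of all genes (22.6% and 21.8%). Of 17 in HSC3 cells 3 rose and 7 fell, where 13.0% and 15.4% of all genes did. DICER1, the nuclease that cuts let-7 precursors and itself a let-7 target, rose by 0.59 (SE 0.039) and 0.46 (SE 0.062). AGO2, the slicing Argonaute, rose by 0.66 (SE 0.047) in CAL27 cells and had 0.081 (SE 0.061, adjusted p = 0.39) in HSC3 cells. PRKRA, a partner of DICER1, fell by 0.33 (SE 0.048) and 0.88 (SE 0.090), and DGCR8, the partner of DROSHA, had 0.028 (SE 0.050, adjusted p = 0.70) in CAL27 cells and fell by 0.84 (SE 0.14) in HSC3 cells. TUT4, which uridylates let-7 precursors bound by LIN28 proteins, had adjusted p-values of 0.94 and 0.81 by edgeR.

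The m6A machinery, whose mark IGF2BP proteins read, had 8 of 13 genes higher and none lower in CAL27 cells, with a median of 0.17, and 4 higher and 1 lower in HSC3 cells, with a median of 0.12. FTO, an m6A eraser, rose by 0.30 (SE 0.038) and 0.41 (SE 0.061). YTHDF1, a cytoplasmic reader, rose by 0.23 (SE 0.040) in CAL27 cells, and YTHDC2, a helicase reader, fell by 0.41 (SE 0.075) in HSC3 cells. None of these changes reached 2-fold. Over all genes, 22.6% rose and 21.8% fell in CAL27 cells, while 13.0% rose and 15.4% fell in HSC3 cells.

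The insulin-like growth factor axis, which gave the IGF2BP proteins their name, had medians below that of all genes. Of 12 tested genes, 8 fell and 2 rose in CAL27 cells (median -0.61), where 21.8% of all genes fell and 22.6% rose. In HSC3 cells 7 fell and 2 rose (median -0.47), where 15.4% of all genes fell and 13.0% rose. IGFBP3, the main IGF carrier of serum, fell by 0.84 (SE 0.059) in CAL27 and by 1.19 (SE 0.13) in HSC3 cells. IGFBP6, a carrier that prefers IGF2, fell by 1.15 (SE 0.082) and 1.09 (SE 0.13), and IRS1, the docking protein of the receptors, fell by 0.23 (SE 0.039) and 0.68 (SE 0.070). IGF2 itself, the message after which the family is named, was at 0 in 11 of the 12 libraries.

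Of 10 tested HMG chromatin proteins outside the HMGA genes, 2 rose and 3 fell in CAL27 cells and 2 fell in HSC3 cells, counts near the shares of all genes (22.6% higher and 21.8% lower for CAL27, 13.0% higher and 15.4% lower for HSC3). HMGB2, which is tied to proliferation, fell by 0.28 (SE 0.043) and 0.55 (SE 0.071). Among other oncofetal genes, 5 of 11 were tested, of which 1 rose and 2 fell in CAL27 cells and 3 fell in HSC3 cells. H19, an imprinted noncoding RNA of fetal tissue named after its values were seen, had 1767, 1175 and 1492 counts in CAL27 vehicle libraries and fell to 317, 181 and 235 counts in CAL27 DOX libraries (log2 fold change -2.45, SE 0.18) and by 1.54 (SE 0.47, adjusted p = 0.032) in HSC3 cells.

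Genes that share let-7 matches with the members were compared as classes. With the members left out, 28 tested genes with 3 or more matches had a median log2 fold change of -0.019 in CAL27 cells, where 28.6% rose and 32.1% fell. The 12825 genes with no match had a median of -0.0039, and 27.8% of them rose and 25.6% fell. In HSC3 cells the medians were 0.026 over 29 genes with 3 or more matches and -0.0028 over 12149 genes with none. The 142 genes with 2 matches had a median of 0.063 there, and 28.2% of them rose, against 19.7% with 1 match, 20.7% with 3 or more and 15.4% with none. The shares that fell were 16.9% with 2 matches, 21.7% with 1, 24.1% with 3 or more and 18.4% with none. Between the untreated lines the medians were 0.23 with 3 or more matches (29 genes) and -0.039 with none, and 58.6% and 40.0% were higher in HSC3 cells. The shares that were lower there were 31.0% with 3 or more matches and 39.9% with none. Classes with 1 and 2 matches had medians of 0.079 and 0.080. These classes were compared as descriptions, with no test. Of the 9 genes other than members with 4 or more matches, HIC2, a transcriptional repressor, rose by 0.42 and 1.03 on the log2 scale, and TRIM71, a LIN28-linked ubiquitin ligase, was too low to be tested in either line.

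**Figure D5:**
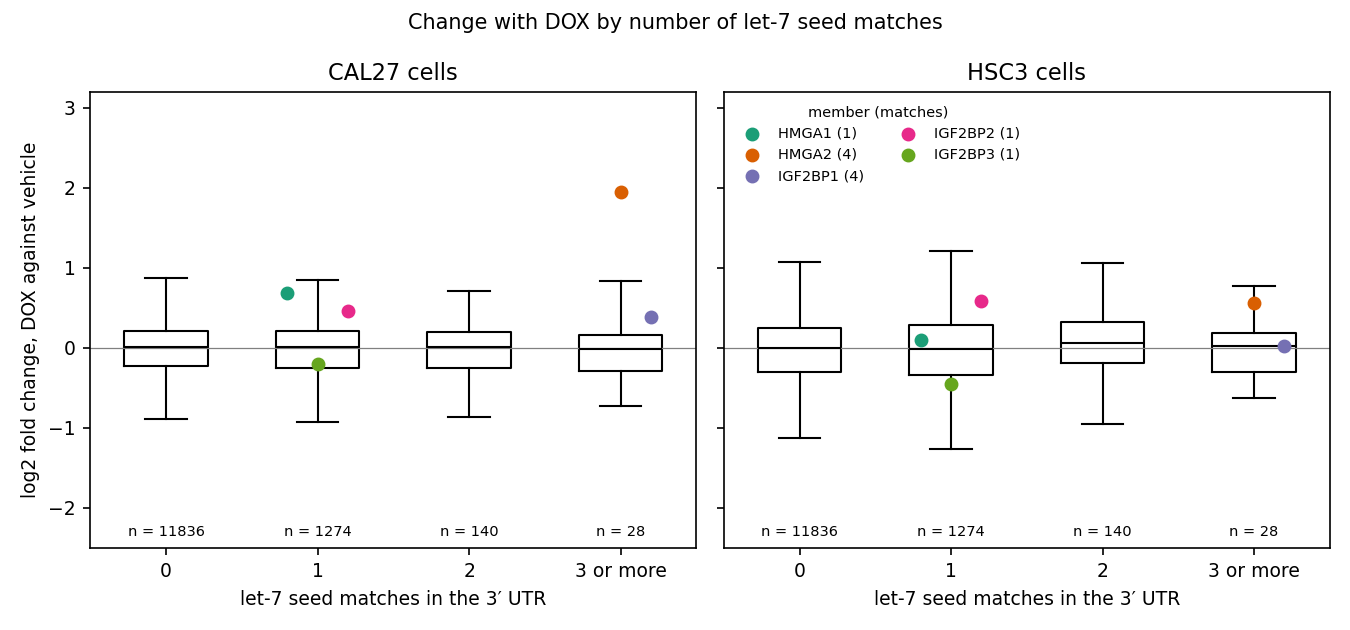
The x axis groups genes tested in both lines by the number of CTACCTC matches in the 3′ UTR, and the y axis is the log2 fold change with DOX, for CAL27 cells on the left and HSC3 cells on the right. Boxes show the quartiles and median of genes other than the members, whiskers reach the last point within 1.5 box lengths, and coloured points are the members with their number of matches. The boxes of all classes are centred near 0, and HMGA2 (1.95) lies above the whisker of its class in CAL27 cells.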

How the data were processed

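Stranded poly(A) libraries were prepared from total RNA. Per the labels, the processing used FastQC 0.11.9, STAR 2.7.9a, Subread 2.0.1 and featureCounts on GRCh38. The authors deposited raw counts per gene symbol, 1 table per line. The annotation, the use of strand and the handling of duplicated and shared reads are not given in the sources used here. The CAL27 DOX columns are numbered 4 to 6 and were mapped to their group only. Of 39368 symbols, 38934 matched GENCODE v44, which gave positions and lengths.

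Counts were analysed in R 4.3.3. Each contrast was fitted with edgeR 4.0.16 (TMM, filterByExpr minimum 10 and total 15, robust glmQLFit, glmQLFTest), with Benjamini-Hochberg adjusted p-values over all genes tested. CPM were TMM-normalized within a line. The number of counts that stand for 1 molecule was taken from the share of zeros among genes expected at 8 to 16 counts. On simulated data in which 200 genes were shifted by 1.5 on the log2 scale, each fit was tested and recovered 99% (CAL27), 90% (HSC3), 94.5% (untreated lines) and 79.5% (difference) of them. Unchanged genes made up 21 of 219, 11 of 191, 10 of 199 and 12 of 171 calls in the same order, against a nominal share of 5%.

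Members and lists were chosen with earlier results of these data known. Named list genes were the 2 with the largest change per list and line that passed the test and averaged 3 or more in log2 CPM, unless said otherwise; some are not reported here. Alternatives were DESeq2 1.42.0, other scalings, filters and thresholds, division by counts per molecule, 1 fit of all libraries, a replicate block and each library left out.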

Additional observations from a re-analysis of the deposited data

Results flagged for a closer look

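For 11 of the 19 list genes named by rule, the change with DOX differed between the lines by the interaction test over all 12 libraries in edgeR. Over all genes 8.25% had a difference called higher and 12.3% one called lower. The genes were named for a large change in 1 of the lines, a choice that favours a difference on the same libraries, so their count and adjusted p-values are not independent of it. The differences below are the HSC3 log2 fold change minus that of CAL27. MIR100HG rose less in HSC3 cells (-1.99, SE 0.19), given without a p-value because its likeness to HMGA2 was found over the same libraries. The D-type cyclins CCND2 (-1.17, SE 0.096, adjusted p = 8.5e-07) and CCND1 (-0.838, SE 0.081, adjusted p = 3.9e-06) also rose less there. ARID3A differed the other way (1.21, SE 0.11, adjusted p = 3.6e-06).

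Among let-7 biogenesis genes, DGCR8 (-0.872), AGO2 (-0.574) and PRKRA (-0.542) differed, with adjusted p-values of 8.6e-04, 8.5e-05 and 0.0010. IRS1 differed by -0.448 (adjusted p = 2.9e-04), YTHDC2 by -0.385 (adjusted p = 0.0042) and the let-7g host WDR82 by -0.325 (adjusted p = 0.0088). HMGB2 differed by -0.268 (adjusted p = 0.044), and that call was lost in 11 of 17 alternatives, with adjusted p-values from 0.0028 to 0.14 over all of them. Groups of 3 libraries are too small to look for single outlying samples by the spacing of their values.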

How the results depend on the processing

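Within each line, the 5 measured members kept their direction under every alternative run. With HSC3 DOX replicate 1 left out, HMGA1 passed the test in HSC3 cells (fits without 1 library each: 0.0254 to 0.227). In the difference between the lines those fits gave -0.38 to -0.314 for IGF2BP1 and 0.081 to 0.215 for IGF2BP2, and for IGF2BP3 between the untreated lines 0.0567 to 0.126. Scaling by library totals turned IGF2BP3 to -0.184 and IGFBP6 to -0.215 between the untreated lines. Genes over 2-fold numbered 252 (higher) and 984 (lower) for CAL27, and 284 and 793 for HSC3. By adjusted p alone they were 4351 and 4203, and 2342 and 2782. At 1.5-fold they were 714 and 1848, and 798 and 1514. In 1 fit of all 12 libraries, 568 were lower in CAL27 cells, and 545 were higher and 1237 lower in HSC3 cells. The cause of these moves was not tested, apart from the thresholds. In HSC3 cells the replicate block gave 252 higher and 753 lower genes, HMGA2 at 0.558 and CCND2 at 0.204 (edgeR adjusted p = 0.054). The numbers did not pair the samples (correlations of same-numbered deviations -0.20, 0.35 and -0.35), and only replicate 2 correlated best with its own number. CAL27 DOX columns carry no sample number, so no block was fitted there. Over the other named genes, 20 alternative fits lost a call, on 5 values (HMGB2 and MUC1 in the difference, CCND2 in HSC3, HUWE1 in CAL27 and YTHDF1 between the untreated lines), and 13 gained one, on 5 values (FTO, THBS1 and PRKRA between the untreated lines, IGFBP3 in the difference and HUWE1 in HSC3). LIN28B and other low genes are limited by molecules more than by counts.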
